A study of Orbilia oligospora ATCC 24927 with 24 samples.

Results

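The genes of 3 enzymes of amino acid synthesis were followed through all 8 groups of an RNA-seq study of Arthrobotrys oligospora, a fungus that forms adhesive networks to trap nematodes. They were argininosuccinate synthase (AOL_s00076g641), argininosuccinate lyase (AOL_s00215g119) and D-3-phosphoglycerate dehydrogenase (AOL_s00215g666), and they are 3 of the 11479 annotated genes. They were chosen by name from measured values, because they were listed at 0 in some groups of 1 experiment and at high levels in others. Their levels are therefore given as a description, without a test. The samples form 2 experiments, and each of them compared a wild type of strain ATCC 24927 with a strain labelled as a deletion. The PkaC1 experiment set wild type against an AoPkaC1 deletion, which concerns a catalytic subunit of the cAMP-dependent protein kinase PKA. The Acy experiment set wild type against an AoAcy deletion, which concerns adenylate cyclase, the enzyme that makes cAMP. Hyphae were grown on potato dextrose agar at 28 °C and sampled untreated at 0 h or 12 h into trap induction with nematode extract, with 3 libraries in each group. No untreated 12 h group was among the samples, so the extract and the time cannot be told apart. Groups follow the sample labels. The series' design text names another mutant, ΔAorlmA, and fewer samples, so what the deletion strains are rests on the labels alone, which do not say whether a strain was 1 clone. The labels also leave unsaid whether separate cultures gave the 3 libraries of a group, so p-values measure only the spread between these libraries. The RNA came from whole hyphal material, in which fewer cells of a kind and less RNA per cell cannot be told apart.

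Argininosuccinate synthase joins citrulline to aspartate, and argininosuccinate lyase then splits the product into arginine and fumarate. These are the last steps of arginine synthesis, downstream of ornithine, and in yeast the genes are called ARG1 and ARG4. Phosphoglycerate dehydrogenase takes 3-phosphoglycerate out of glycolysis and opens the path to serine, from which cells make glycine, one-carbon units, cysteine and sphingolipids. In yeast and Neurospora, genes of many amino acid pathways are raised together by general amino acid control, in which the kinase GCN2 senses uncharged tRNA and a transcription factor called Gcn4 or CPC1 acts on the genes. The annotated functions were as the names say. AOL_s00076g641 carried the arginosuccinate synthase domain and a coding length of 1242 bases. AOL_s00215g119 carried a lyase domain with the argininosuccinate lyase C-terminal domain over 1425 bases. AOL_s00215g666 was matched to the yeast enzyme SER33 over 1419 bases.

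Expression was deposited as TPM, a transcript level per length that has the same sum in every library and keeps no depth. The median TPM of annotated genes ran from 7.34 to 17.5 in the PkaC1 experiment and from 14.4 to 24.98 in the Acy experiment, and 9461 to 9799 and 10216 to 10539 annotated genes lay above 0. Replicates were closest in the wild type groups of the PkaC1 experiment, where highly expressed genes (1000 TPM and above) varied with a median coefficient of variation of 1.63% and 1.98%, against 6.03% to 17.9% in the other 6 groups. The labels do not tie the deleted genes to gene IDs, and their annotated candidates were above 0 in every library. The adenylate cyclase AOL_s00080g284 was at 16.5 ± 0.777 TPM in untreated wild type and 10.3 ± 0.906 in the untreated AoAcy deletion (SD, n = 3), and at 13.3 ± 2.14 and 11.5 ± 1.31 after induction. Of the PKA catalytic subunits, AOL_s00043g480 was at 69.6 ± 0.943 TPM in untreated wild type and 48.5 ± 4.03 in the untreated AoPkaC1 deletion, and at 50.3 ± 3.79 and 25.01 ± 0.0954 after induction. AOL_s00078g405 was at 57.1 ± 1.101 and 51.2 ± 5.03 TPM untreated, and at 25.9 ± 1.57 and 25.04 ± 0.921 after induction. The 2 tables were normalized separately, so levels are compared within an experiment, and levels from both are only set side by side.

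By its listed values, argininosuccinate synthase (AOL_s00076g641) was split by treatment in the PkaC1 experiment. A listed 0 can be a failed estimate, so no response is read from this split. The gene was listed at 0 in the 3 untreated wild type libraries and in the 3 untreated deletion libraries. After induction the 3 wild type libraries were at 285.2, 287 and 265 TPM and the 3 deletion libraries at 329, 367 and 306 TPM. The induced deletion libraries all lay above the induced wild type libraries, at 120% of their mean. That is a log2 difference of 0.25, or 0.63 once the libraries were scaled to the same median. The same gene was above 0 in all 12 libraries of the Acy experiment and was the highest of the 3 enzymes in every group. Untreated wild type was at 670.3, 829 and 656 TPM and induced wild type at 503, 493 and 541 TPM. The untreated AoAcy deletion was at 619.9, 579 and 459 TPM and the induced one at 633, 629 and 511.6 TPM. Untreated wild type thus stood above the other 3 groups, which overlapped one another in the order induced deletion, untreated deletion and induced wild type. In that experiment induction of wild type went with a lower level, at 71.3% of the untreated mean, a log2 difference of -0.48, or -0.27 after scaling. The step from a listed 0 in the PkaC1 experiment went upward.

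Argininosuccinate lyase (AOL_s00215g119) differed by strain in the PkaC1 experiment as listed, but its deletion values are zeros that may be failed estimates. In wild type the gene also differed by treatment. It was at 15.6, 24.7 and 23.8 TPM in untreated wild type and at 92.4, 101.8 and 84.9 TPM in induced wild type. All 6 deletion libraries, untreated and induced, were listed at 0. The induced wild type libraries did not overlap the untreated ones, with a log2 difference of 2.09, or 2.44 after scaling. No library of the Acy experiment was below 174.8 TPM. Untreated wild type was at 353, 389 and 370.2 TPM and induced wild type at 339, 342 and 355 TPM, and these ranges overlapped. The untreated AoAcy deletion was at 274, 240.1 and 174.8 TPM and the induced one at 211, 214 and 213 TPM, again overlapping. Both deletion groups lay below both wild type groups, at 62.0% of wild type untreated and 61.5% induced.

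A second gene is annotated as argininosuccinate lyase, AOL_s00117g52, and it was listed above 0 throughout. In the PkaC1 experiment it was at 57.0 ± 2.63 TPM in untreated wild type, 123 ± 3.14 in induced wild type, 41.2 ± 0.646 in the untreated deletion and 31.3 ± 4.997 in the induced deletion (SD, n = 3). AOL_s00215g119 gave 27.1% ± 5.56 of the summed lyase TPM in untreated wild type and 43.1% ± 2.57 in induced wild type. In the deletion libraries it was listed at 0, so no share is read there. Its share in the 4 groups of the Acy experiment was between 43.3% ± 5.88 and 51.7% ± 12.9. Summed over both genes, lyase was at 78.4 ± 3.12 and 216 ± 7.64 TPM in untreated and induced wild type of the PkaC1 experiment and at 41.2 ± 0.646 and 31.3 ± 4.997 TPM in the deletion. The deletion sums are those of AOL_s00117g52 alone, with AOL_s00215g119 entered at its listed 0. If that 0 is a failed estimate, these sums are too low. The sum in the Acy experiment was 863 ± 73.1 and 794 ± 110 TPM in wild type and 447 ± 14.9 and 488 ± 12.7 TPM in the deletion. How reads that fit both lyase genes were counted is not stated, so the split between them is uncertain.

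Phosphoglycerate dehydrogenase (AOL_s00215g666) was split by treatment in the PkaC1 experiment as listed, as argininosuccinate synthase was. Its untreated values there, at or near 0, may likewise be failed estimates. After induction the gene also differed by strain. In untreated wild type of the PkaC1 experiment the 3 libraries were at 2.36, 0 and 0.86 TPM, and the 3 untreated deletion libraries were listed at 0. After induction wild type was at 259.8, 261.7 and 255 TPM and the deletion at 109, 106 and 105 TPM. The induced deletion was at 41.1% of the induced wild type mean, with no overlap, a log2 difference of -1.28, or -0.91 after scaling. Untreated wild type of the Acy experiment was at 219.5, 359 and 268 TPM and induced wild type at 257, 277 and 333 TPM, and these ranges overlapped. The untreated AoAcy deletion was at 173, 166 and 132 TPM and the induced one at 199, 185 and 119.5 TPM, which also overlapped. Both deletion groups lay below both wild type groups, at 55.5% of wild type untreated and 58.1% induced. A second annotated phosphoglycerate dehydrogenase, AOL_s00083g125, was low in the PkaC1 experiment, with group means from 0.5 to 1.44 TPM. AOL_s00215g666 gave 99.8% ± 0.0228 of the summed TPM of the pair in induced wild type there and 99.5% ± 0.0908 in the induced deletion. Its share in the Acy experiment was 95.9% ± 0.345 in untreated wild type and 82.4% ± 1.71 in the untreated deletion, while AOL_s00083g125 was at 12.1 ± 3.58 and 33.8 ± 8.10 TPM (SD, n = 3).

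**Figure D1:**
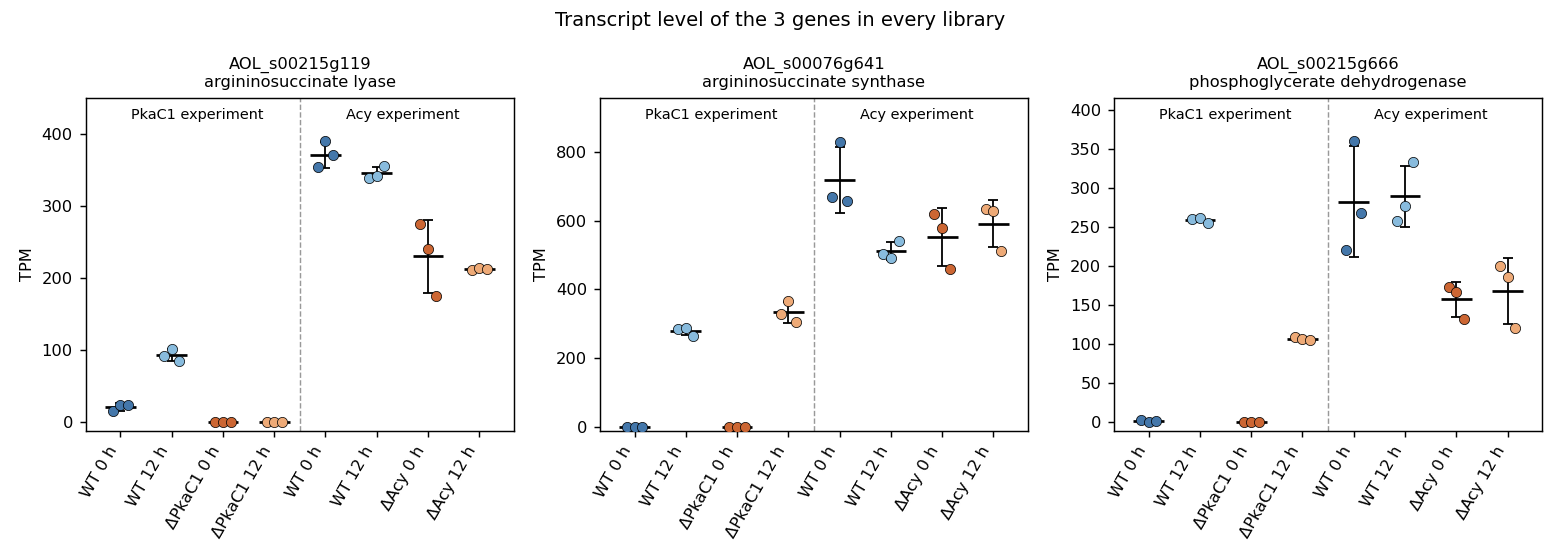
TPM of the 3 genes in each library (points) of the 8 groups, with the mean and SD of the 3 libraries of each group. In the PkaC1 experiment each gene is listed at 0 in at least 3 libraries, whereas in the Acy experiment the lowest of the 36 values is 119.5 TPM.

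Counted by separation of libraries, all 3 genes differed without overlap between the induced PkaC1 deletion and wild type, and on induction of wild type in that experiment. So did 76.2% and 81.2% of the 8977 genes tested there. For induction of the PkaC1 deletion the count was 2 of 3 against 79% of genes, and for the untreated PkaC1 deletion against wild type 1 of 3 against 68.5%. These contrasts chose the genes, so nothing is read from the counts. All 3 were lower without overlap in the untreated AoAcy deletion, where 50.2% of 9617 genes did not overlap in either direction. In the induced deletion 2 of 3 did not overlap, against 66.8% of genes. Induction of wild type separated 1 of 3 there, against 47.4%, and induction of the AoAcy deletion none, against 24%.

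Scaling the Acy libraries to the same median kept the lower levels of the deletion for lyase, with log2 differences of -0.71 untreated and -0.70 induced as deposited, and -0.93 and -1.28 scaled. For phosphoglycerate dehydrogenase they were -0.82 and -0.81 as deposited, and -1.04 and -1.39 scaled. For synthase the untreated difference was -0.38, or -0.60 scaled, and the induced one turned from 0.20 to -0.38. Of the 6 induction differences in the Acy experiment, that of synthase in wild type was the largest in size, and scaling turned the sign of 3 others. Lyase in wild type turned from -0.10 to 0.11. In the AoAcy deletion synthase turned from 0.10 to -0.05 and phosphoglycerate dehydrogenase from 0.07 to -0.08.

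Over the 12 libraries of the Acy experiment, where none of the 3 genes was at 0, Pearson's r of log2(TPM + 1) was 0.87 between lyase and phosphoglycerate dehydrogenase, 0.41 between synthase and lyase and 0.43 between synthase and phosphoglycerate dehydrogenase. These values describe libraries that share their groups and have no test.

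The pattern of exact zeros in the PkaC1 experiment was not peculiar to the 3 genes. A set of 1284 genes had a mean of 100 TPM or more in all 4 groups of the Acy experiment. Of these, 34 (2.65%) were listed at 0 in all 3 libraries of at least 1 group of the PkaC1 experiment, and the 3 enzymes are among them. Of the 34, 8 were at 0 in all 4 groups and 26 in some groups only. By group, 20 of the 1284 genes were at 0 in untreated wild type, 20 in induced wild type, 15 in the untreated deletion and 22 in the induced deletion. In the other direction, none of the 785 genes with 100 TPM or more in all 4 groups of the PkaC1 experiment was listed at 0 in a group of the Acy experiment. Zeros beside a high level in another group of the same table were counted too. In the PkaC1 experiment 2456 genes reached 90 TPM in some group, and 27 of them were listed at 0 in another, against 7 of 2623 in the Acy experiment. An exact 0 can be a failed estimate, and TPM alone do not tell it from a silent gene, so no fold change is given against a group at 0.

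**Figure D2:**
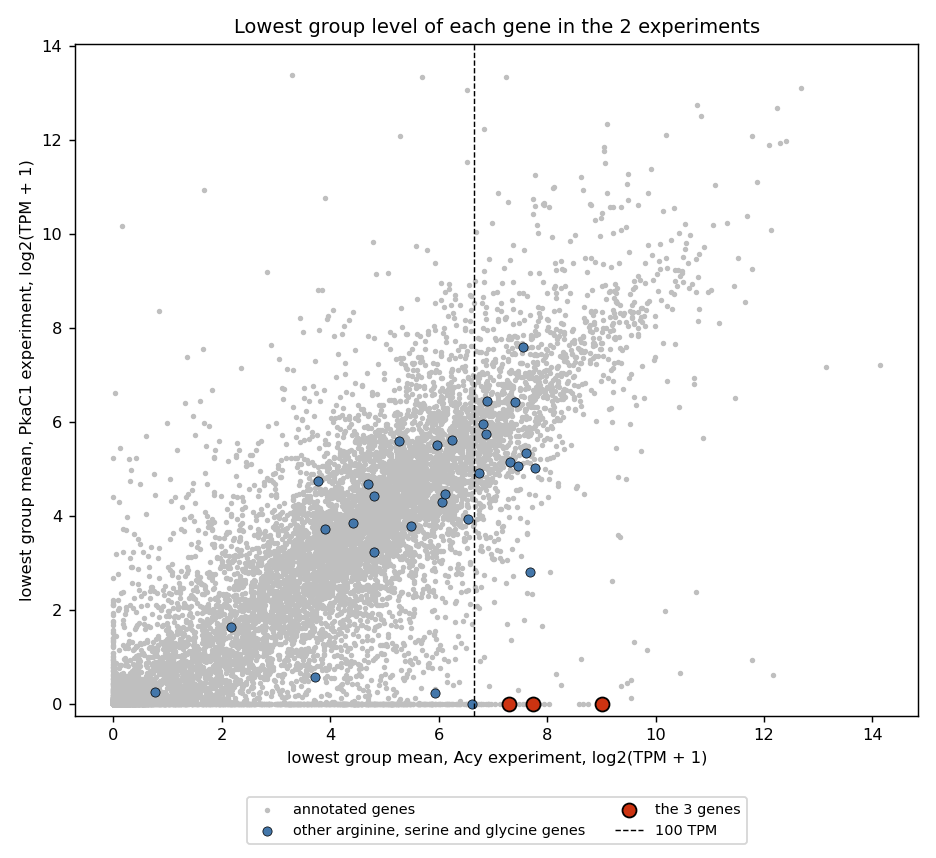
Lowest group mean of each annotated gene in the Acy experiment (x axis) and in the PkaC1 experiment (y axis), both as log2(TPM + 1). The 3 enzymes lie on the zero line of the PkaC1 experiment to the right of the dashed line at 100 TPM, together with other genes of high level.

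The enzyme of the arginine pathway with the plainest zero was AOL_s00083g285, matched to arg-6 of Neurospora, which carries both acetylglutamate kinase and acetylglutamyl-phosphate reductase and so makes the precursors of ornithine. It was listed at 0 in all 12 libraries of the PkaC1 experiment. Its levels in the Acy experiment were 197 ± 20.9 TPM in untreated wild type, 131 ± 14.7 in induced wild type, 127 ± 31.1 in the untreated deletion and 96.8 ± 9.83 in the induced deletion (SD, n = 3). No other gene of the arginine list and none of the serine and glycine list apart from the 3 enzymes was at 0 in all 3 libraries of a group. The genes numbered next to the 3 enzymes were measured in the PkaC1 experiment. Beside lyase, AOL_s00215g118 (an FK506-binding protein) was at 223.9 ± 33.9 and 492 ± 53.1 TPM in the untreated and induced deletion, and AOL_s00215g120 (actin-related protein 10) at 26.4 ± 4.48 and 13.03 ± 4.51 TPM. Beside synthase, AOL_s00076g640 (beta tubulin) was at 194 ± 1.64 TPM in untreated wild type. On its other side AOL_s00076g642 was low, with group means from 1.34 to 2.53 TPM in the PkaC1 experiment and from 32.2 to 57.0 TPM in the Acy experiment. Beside phosphoglycerate dehydrogenase, AOL_s00215g665 (a succinate-CoA ligase subunit) was at 229.6 ± 23.0 TPM and AOL_s00215g667 (nucleosome assembly protein 1) at 206 ± 20.3 TPM in the untreated deletion, where the enzyme was listed at 0. The PkaC1 table also held 1568 assembled loci without a gene name, with 1.69% to 2.77% of a library's TPM. None of them carried the KEGG number or the main domain of the 3 enzymes, but only 52 of them had any domain listed and 18 any KEGG number.

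The authors' deposited table of comparisons lists changes for the 3 genes also where their TPM were 0. In that table the log2 fold change on induction of wild type in the PkaC1 experiment was 14.52 for synthase, 8.14 for phosphoglycerate dehydrogenase and 2.33 for lyase. Between induced deletion and induced wild type, the authors' deposited table gives -12.76 for lyase, 0.68 for synthase and -0.85 for phosphoglycerate dehydrogenase. For the Acy experiment all of the authors' deposited values for the 3 genes lay between -1.20 and 0.23. Between induced deletion and induced wild type there, the authors' deposited values were -1.11 for lyase, -0.20 for synthase and -1.20 for phosphoglycerate dehydrogenase. The deposited TPM gave -0.70, 0.20 and -0.81 unscaled, and -1.28, -0.38 and -1.39 scaled. For lyase on induction of wild type the authors' deposited value was 0.10, against -0.10 from the unscaled TPM. Why they differ was not tested. The values of 8.14 and above in size rest on groups listed at or near 0.

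By Pearson's r over the 24 libraries, centred within each experiment, the genes most like the 3 enzymes were sought among 8279 genes with a mean of 10 TPM or more in at least 1 group. For lyase they were AOL_s00078g210 (r = 0.98), AOL_s00078g61 with a dynamitin domain (0.98) and AOL_s00210g145 (0.96). AOL_s00078g210 and AOL_s00078g61 were, like lyase, listed at 0 in all 6 PkaC1 deletion libraries, and in induced wild type they were at 89.9 ± 2.72 and 50.5 ± 1.77 TPM. For synthase they were the pantothenate synthetase AOL_s00210g336 (0.99), AOL_s00097g6 (0.98) and the HGH1 homologue AOL_s00043g44 (0.98). AOL_s00210g336 and AOL_s00043g44 were listed at 0 in the 6 untreated libraries of the PkaC1 experiment. For phosphoglycerate dehydrogenase they were the glycine cleavage aminomethyltransferase AOL_s00076g614 (0.98), AOL_s00210g336 (0.98) and the beta-glucosidase AOL_s00083g367 (0.98). The likeness of AOL_s00076g614, which was above 0 in every group, was high in each experiment alone, with r = 0.99 in the PkaC1 and 0.90 in the Acy libraries, and that of AOL_s00078g210 was 0.98 and 0.91. Several of these likenesses were not seen in the Acy libraries alone. There AOL_s00078g61 had -0.64 and AOL_s00210g145 -0.29 with lyase. The 3 genes most like synthase had 0.22 (AOL_s00210g336), -0.18 (AOL_s00097g6) and 0.20 (AOL_s00043g44) there. With phosphoglycerate dehydrogenase AOL_s00210g336 had 0.30, while AOL_s00083g367 still had 0.80. The listed zeros of the 3 enzymes, for which they were chosen, entered the r values of the PkaC1 and of all 24 libraries as if measured. Those r values can thus reflect a shared pattern of failed estimates, and no shared regulation is read from them.

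The other genes of the pathways were taken from 2 lists, 12 of arginine metabolism and 17 of serine and glycine metabolism, and tested with limma on log2(TPM + 1), with p-values adjusted over all genes. Changes below are log2 fold changes with their SE. The median over all genes of the PkaC1 experiment was 0.20 for the untreated deletion and -0.39 for the induced one, and -0.16 for the induced wild type and -0.72 for the deletion on induction. The same medians in the Acy experiment were 0.11, 0.39, -0.19 and 0.09. Once libraries were scaled to 1 median these lay between -0.07 and 0.19, and between -0.16 and 0.00. Changes smaller than these shifts depend on the scaling. The shares of all genes given below come from the TPM as deposited. No such share was counted after scaling, so the scaled counts have none to be set against.

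Induction of wild type in the PkaC1 experiment raised most genes of both pathways. Of the 27 list genes tested, 20 rose and 4 fell (20 and 3 after scaling), where 69.7% of all genes were called, 28.1% upward and 41.6% downward. The median change over the 27 was 1.09, against -0.16 over all genes. The wild type replicates differ so little that each wild type group was also counted as 1 library. The spread then comes from the deletion libraries alone, and wild type is assumed to vary like them. On that count 15 were called, all of them higher. Of 11 arginine genes 8 rose and 2 fell. Both that fell were ornithine decarboxylases, on the branch from ornithine to polyamines. AOL_s00076g205 went from 164 ± 0.978 to 138 ± 6.07 TPM (-0.26), and scaling turned its change to 0.09. AOL_s00097g429 was low, at 1.06 ± 0.0231 and 0.17 ± 0.0656 TPM (-0.82). Neither was among the 15 calls just given. The acetylornithine aminotransferase AOL_s00081g335, which makes N-acetylornithine, rose from 18.6 ± 0.754 to 71.0 ± 3.62 TPM (1.88 ± 0.101, adjusted p = 1.65e-08). ArgJ (AOL_s00215g689), which hands the acetyl group on and releases ornithine, rose from 8.44 ± 0.805 to 30.03 ± 0.282 TPM (1.72 ± 0.104). The large chain of arginine-specific carbamoyl-phosphate synthase, AOL_s00188g271, rose by 1.51 ± 0.122 and the small chain AOL_s00078g512 by 0.56 ± 0.116. Ornithine carbamoyltransferase (AOL_s00188g27), which makes citrulline, rose by 0.45 ± 0.074, and the second lyase AOL_s00117g52 by 1.09 ± 0.0987. The genes of arginine breakdown rose as well. Arginase (AOL_s00083g426) went from 208 ± 11.3 to 858 ± 13.2 TPM (2.04 ± 0.0704, adjusted p = 4.89e-10) and ornithine aminotransferase (AOL_s00076g88) from 76.1 ± 4.74 to 166 ± 23.3 TPM (1.11 ± 0.125). The acetylglutamate synthase AOL_s00215g518, the entry step, was not called, at 14.5 ± 0.598 and 14.3 ± 2.29 TPM. Counting wild type as 1 library per group ended the calls for AOL_s00078g512 (adjusted p = 0.144) and AOL_s00188g27 (adjusted p = 0.0865).

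**Figure D3:**
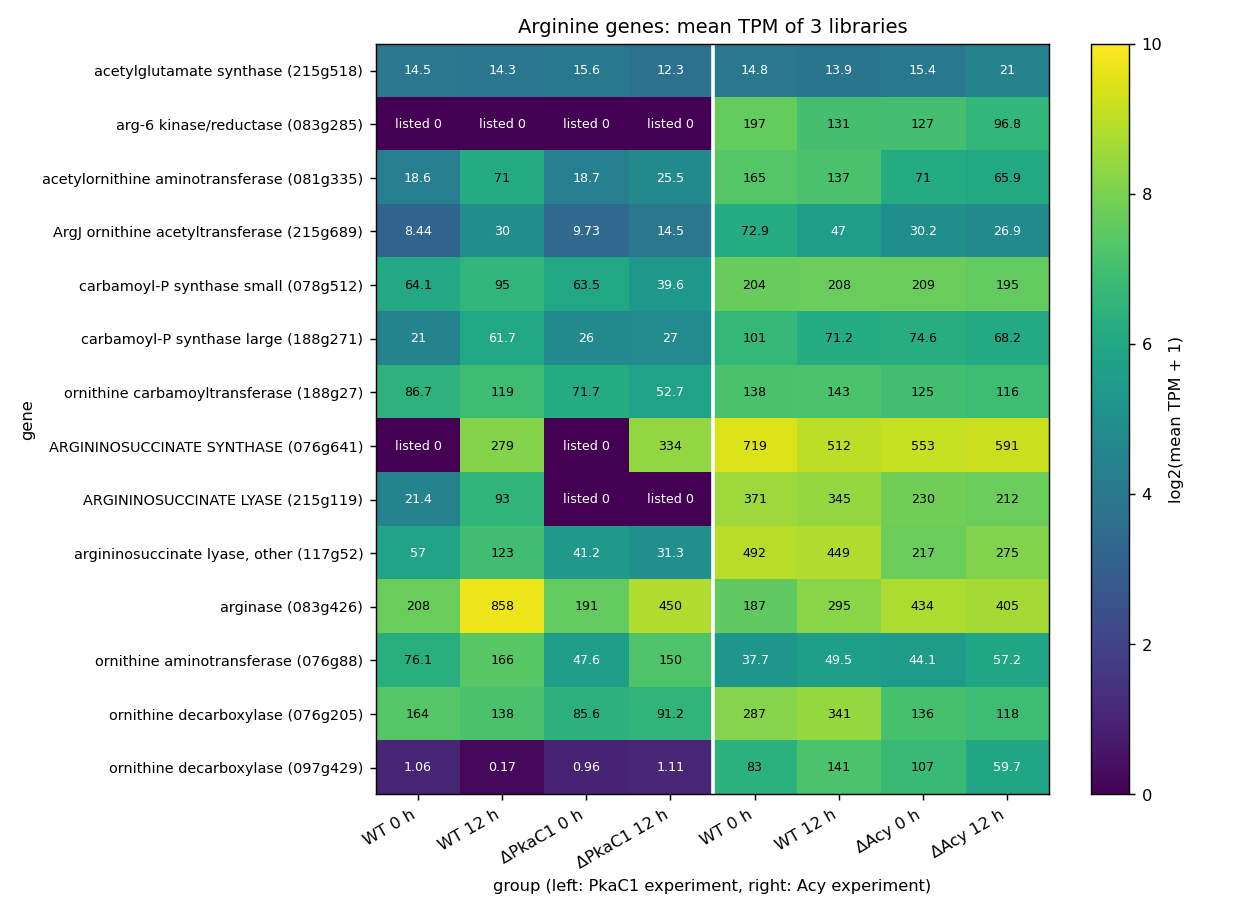
Mean TPM of 3 libraries for the 14 genes of arginine metabolism (rows, in pathway order; the 2 arginine enzymes chosen by value are in capitals) in the 8 groups (columns), coloured by log2(mean TPM + 1). Arg-6 is listed at 0 in all 4 groups of the PkaC1 experiment, synthase in both untreated groups and lyase in both deletion groups, while the rows around them are above 0.

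Of 16 serine and glycine genes tested in the same comparison 12 rose and 2 fell. The 2 steps after phosphoglycerate dehydrogenase were among those that rose. Phosphoserine aminotransferase (AOL_s00076g374) went from 32.5 ± 0.602 to 149 ± 2.42 TPM (2.16 ± 0.111, adjusted p = 1.11e-08) and phosphoserine phosphatase (AOL_s00079g141) from 16.8 ± 0.595 to 29.9 ± 2.48 TPM (0.80 ± 0.128, adjusted p = 0.000163). The cytosolic serine hydroxymethyltransferase AOL_s00054g637, which turns serine into glycine and a one-carbon unit, rose most on the list, from 6.03 ± 2.61 to 219 ± 19.9 TPM (5.04 ± 0.26). Its mitochondrial counterpart AOL_s00215g2 rose by 1.28 ± 0.0937. In the glycine cleavage system the aminomethyltransferase AOL_s00076g614 went from 36.7 ± 0.147 to 222 ± 0.458 TPM (2.57 ± 0.0711) and the H protein AOL_s00004g510 rose by 1.35 ± 0.153, while the P protein AOL_s00043g159 fell by 0.49 ± 0.0861. The cystathionine beta-synthase AOL_s00043g502, which takes serine towards cysteine, rose by 1.58 ± 0.0734. The L-serine dehydratase AOL_s00076g97, which breaks serine down, fell from 136 ± 3.99 to 81.8 ± 1.19 TPM (-0.73 ± 0.133, adjusted p = 0.000436). The second phosphoglycerate dehydrogenase AOL_s00083g125 was not called. Taking each wild type group as a single library ended the calls for AOL_s00079g141 (adjusted p = 0.067), AOL_s00043g159 (adjusted p = 0.109) and AOL_s00076g97 (adjusted p = 0.11).

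**Figure D4:**
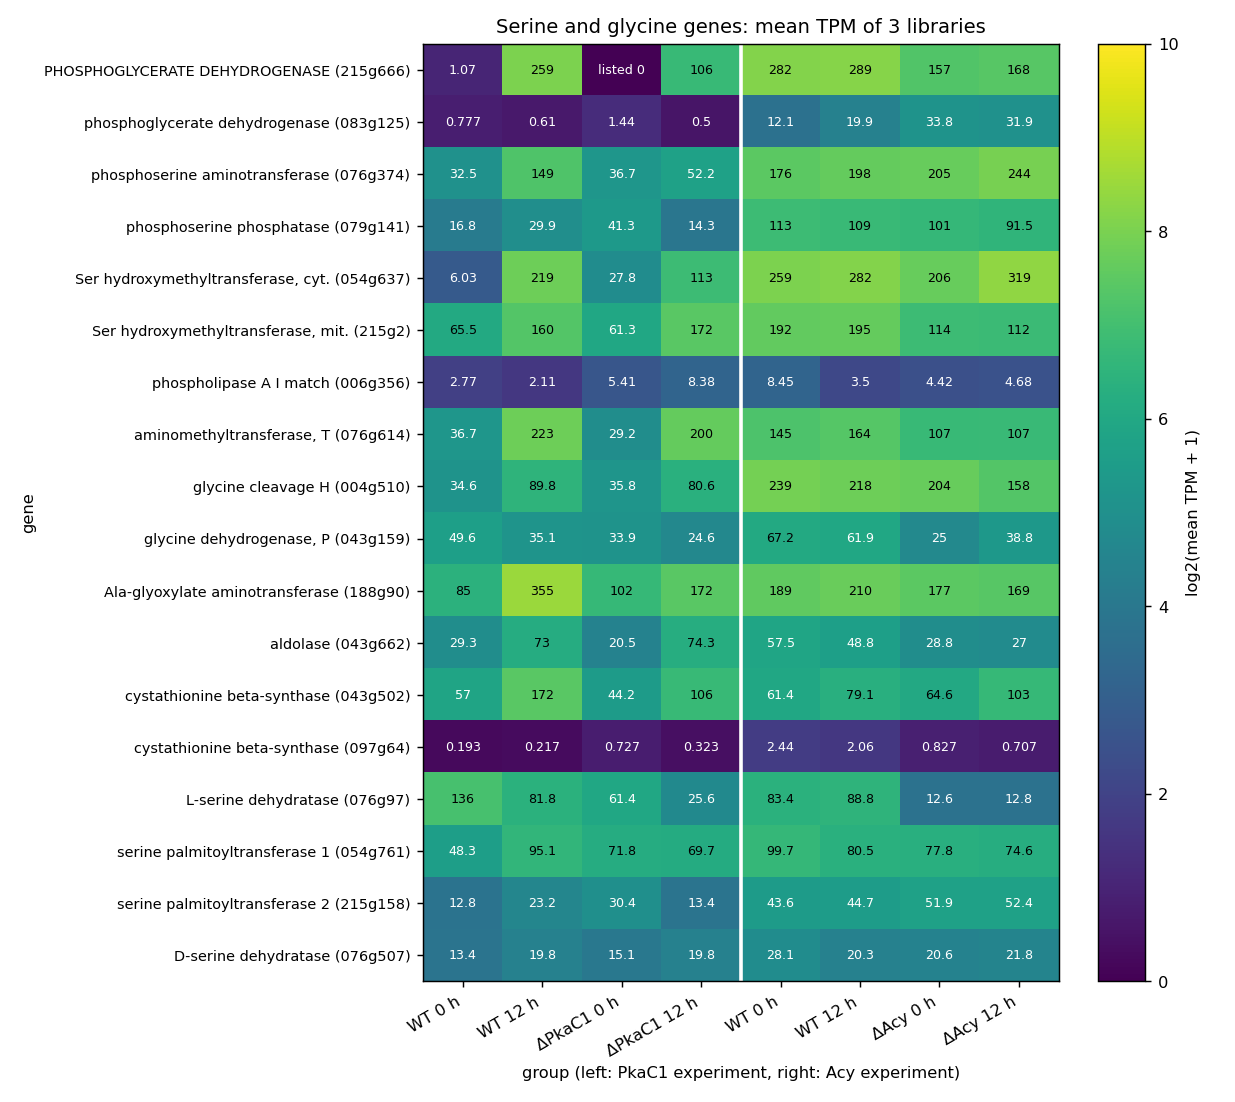
Mean TPM of 3 libraries for the 18 genes of serine and glycine metabolism (rows; phosphoglycerate dehydrogenase AOL_s00215g666 in capitals) in the 8 groups (columns), coloured by log2(mean TPM + 1). AOL_s00215g666 and the serine hydroxymethyltransferase AOL_s00054g637 are low in the untreated groups of the PkaC1 experiment and high after induction.

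Induction of the PkaC1 deletion called 22 of the 27 genes, 14 higher and 8 lower, where 81.6% of all genes were called (19.4% up, 62.2% down). The split depends on scaling, which made it 23 higher and 1 lower. Scaling also moved the median of all genes there, from -0.72 to 0.19, and the shares above are unscaled. Changes that stayed upward on both scales include arginase AOL_s00083g426 (1.24 ± 0.0704, 2.26 scaled), ornithine aminotransferase AOL_s00076g88 (1.64 ± 0.125, 2.65 scaled) and the aminomethyltransferase AOL_s00076g614 (2.74 ± 0.0711, 3.75 scaled). Others turned. Ornithine carbamoyltransferase AOL_s00188g27 was at -0.44 ± 0.074 as deposited and 0.58 scaled, and the second lyase AOL_s00117g52 at -0.40 ± 0.0987 and 0.60. Phosphoserine phosphatase AOL_s00079g141 fell on both scales, by 1.45 ± 0.128 as deposited, with -0.46 scaled.

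**Figure D5:**
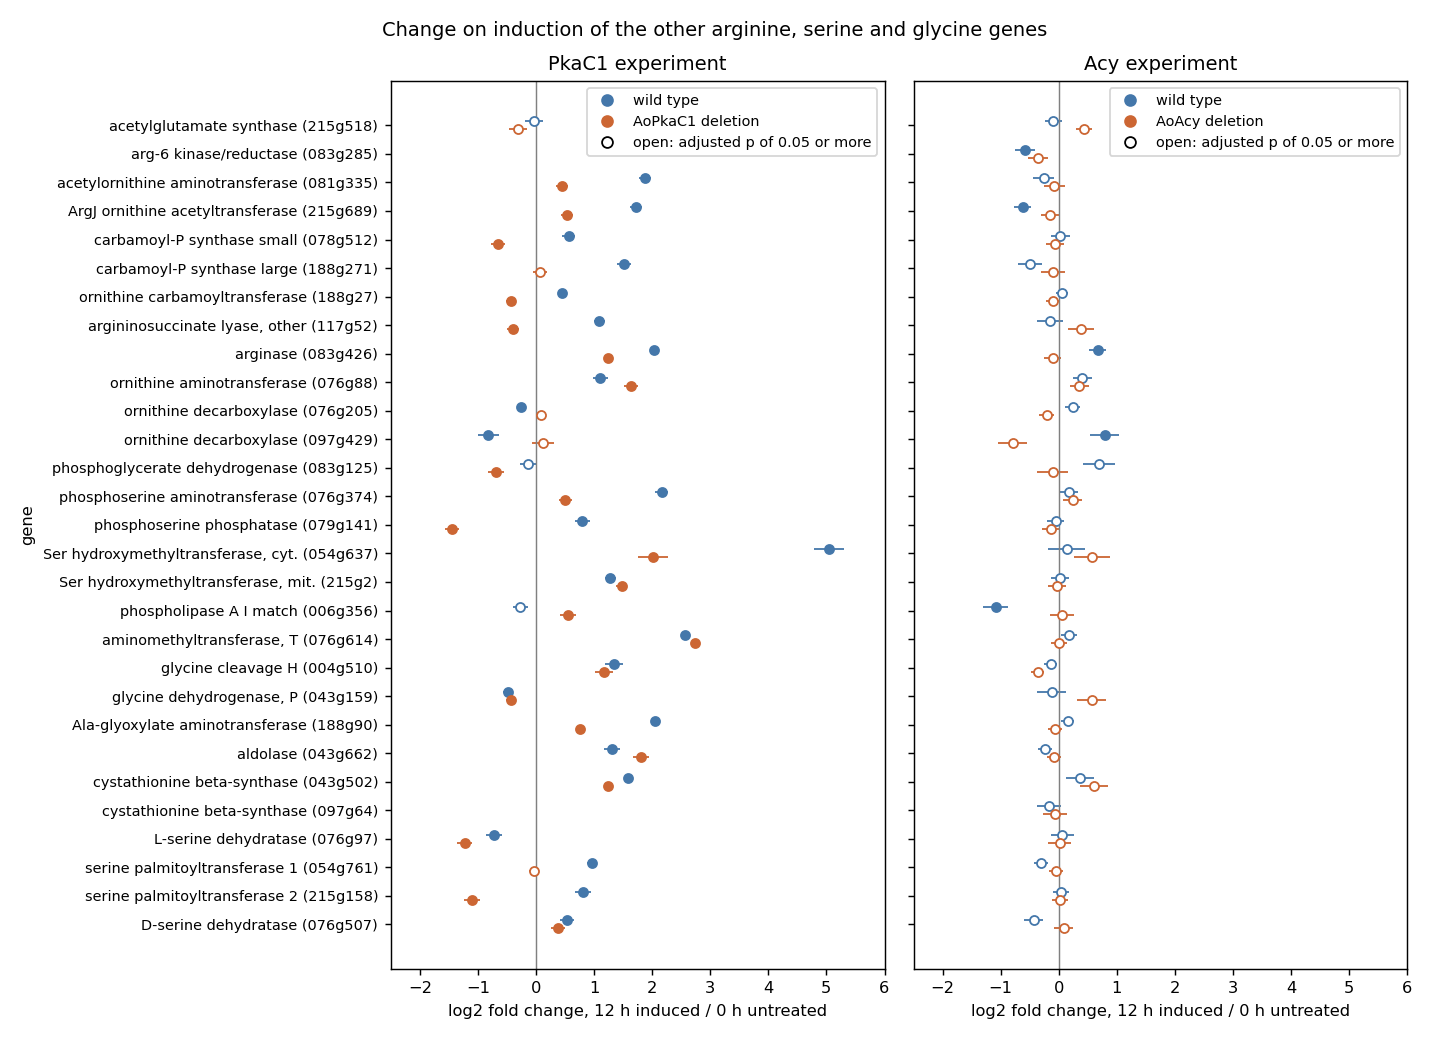
Log2 fold change on induction (points, bars are SE) of the other arginine, serine and glycine genes in wild type and deletion of each experiment; filled points have an adjusted p under 0.05, open points do not. In the PkaC1 experiment 20 wild type points are filled to the right of 0, and in the Acy experiment 2 are.

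The response to induction differed between the PkaC1 strains, by the test of the difference itself, for 21 of the 27 genes, 5 more positive and 16 more negative in the deletion, where 71.9% of all genes were called, 18% more positive and 53.9% more negative. Among these and the regulators 12 differed by 2-fold or more, which 42.8% of all genes did. After scaling the split was 11 and 12, and with each wild type group as 1 library 13 were called, all more negative. The largest was the serine hydroxymethyltransferase AOL_s00054g637 (-3.02 ± 0.367, adjusted p = 2.5e-05, -2.35 scaled). Phosphoserine phosphatase AOL_s00079g141 differed by -2.24 ± 0.181 (-1.59 scaled) and phosphoserine aminotransferase AOL_s00076g374 by -1.66 ± 0.157 (-0.9999 scaled). In the arginine list the second lyase AOL_s00117g52 differed by -1.49 ± 0.14 (-0.83 scaled) and the carbamoyl-phosphate synthase large chain AOL_s00188g271 by -1.45 ± 0.173 (-0.80 scaled).

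Between strains, the untreated PkaC1 deletion differed from wild type in 16 of 27 genes, 7 higher and 9 lower, where 64.7% of all genes were called, 40.7% upward and 24% downward (5 and 13 after scaling). With each wild type group as 1 library 9 were called. The serine hydroxymethyltransferase AOL_s00054g637 was higher in the untreated deletion, at 27.8 ± 7.53 TPM (2.08 ± 0.26), as was phosphoserine phosphatase AOL_s00079g141, at 41.3 ± 8.80 TPM (1.23 ± 0.128). The ornithine decarboxylase AOL_s00076g205, which leads from ornithine to polyamines, was lower, at 85.6 ± 5.90 against 164 ± 0.978 TPM (-0.94 ± 0.0789). After induction 19 of 27 differed, 2 higher and 17 lower, where 70.9% of all genes were called, 18.9% upward and 52% downward (6 and 15 after scaling). The second lyase AOL_s00117g52 was lower by 1.95 on the log2 scale (-1.95 ± 0.0987, adjusted p = 3.01e-08), and acetylornithine aminotransferase AOL_s00081g335 (-1.44 ± 0.101) and phosphoserine aminotransferase AOL_s00076g374 (-1.50 ± 0.111) were lower too. Arginase AOL_s00083g426 was at 449.8 ± 5.72 TPM against 858 ± 13.2 (-0.93 ± 0.0704). The glycine cleavage aminomethyltransferase AOL_s00076g614 was not called, at 200.3 ± 3.64 against 222 ± 0.458 TPM.

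All 29 genes were tested in the Acy experiment. Of these, 15 differed in the untreated deletion, 2 higher and 13 lower, where 42.1% of all genes were called, 26.6% upward and 15.6% downward (2 and 18 after scaling). After induction 16 differed, 2 higher and 14 lower, where 59.2% of all genes were called, 45.5% upward and 13.7% downward (0 and 22 after scaling). Scaling also moved the median of all genes in the induced comparison, from 0.39 to -0.16, and the shares are unscaled. The lean to lower levels was not particular to these 2 pathways. Of 63 genes of other amino acid biosynthesis, 4 were higher and 35 lower in the untreated AoAcy deletion (3 and 45 after scaling). In the induced one 8 were higher and 27 lower (4 and 50 after scaling). In the arginine list the second lyase AOL_s00117g52 was at 492 ± 90.8 TPM in untreated wild type and 217 ± 64.7 in the deletion (-1.20 ± 0.226, adjusted p = 0.000971). Acetylornithine aminotransferase AOL_s00081g335 was lower by -1.23 ± 0.18 untreated and -1.04 ± 0.18 induced, and ArgJ AOL_s00215g689 by -1.26 ± 0.151 and -0.78 ± 0.151. The ornithine decarboxylase AOL_s00076g205 went from 341 ± 45.6 TPM in induced wild type to 118 ± 14.3 in the induced deletion (-1.52 ± 0.133). Arginase AOL_s00083g426 went the other way in the untreated deletion, at 434 ± 13.8 TPM against 187 ± 34.4 (1.23 ± 0.144, 1.01 scaled). Its induced difference was 0.46 ± 0.144, and scaling turned it to -0.13. The induced call for AOL_s00083g426 was also lost without replicate 1 of induced wild type or replicate 1 or 2 of the induced deletion (adjusted p = 0.0564 to 0.0703).

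In the serine and glycine list of the Acy experiment the steps after phosphoglycerate dehydrogenase were not called in either comparison of strains. Phosphoserine aminotransferase AOL_s00076g374 was at 176 ± 31.4 TPM in untreated wild type and 205.1 ± 21.4 in the deletion, and phosphoserine phosphatase AOL_s00079g141 at 113 ± 12.8 and 100.6 ± 13.8. The L-serine dehydratase AOL_s00076g97 had the largest difference, from 83.4 ± 13.1 to 12.6 ± 0.941 TPM untreated (-2.63 ± 0.191, adjusted p = 4.82e-07) and from 88.8 ± 25.9 to 12.8 ± 1.69 TPM induced (-2.68 ± 0.191). The same gene was lower in the PkaC1 deletion, by -1.15 ± 0.133 untreated and -1.65 ± 0.133 induced, against its own wild type. The mitochondrial serine hydroxymethyltransferase AOL_s00215g2 was lower in the AoAcy deletion by -0.75 ± 0.155 untreated and -0.81 ± 0.155 induced, and the second phosphoglycerate dehydrogenase AOL_s00083g125 was higher untreated (1.41 ± 0.272).

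Few pathway genes were called on induction in the Acy experiment. Its wild type replicates varied more than those of the PkaC1 experiment, with a median coefficient of variation of 12.0% and 12.8% at 1000 TPM and above. In wild type 5 of 29 were called, 2 higher and 3 lower, where 28.6% of all genes were called, 9.2% upward and 19.4% downward. By limma 10 of the 29 had an unadjusted p under 0.05. After scaling 9 were called, 7 higher and 2 lower. Without replicate 3 of untreated wild type or replicate 2 of induced wild type 3 were called. Arginase AOL_s00083g426 rose from 187 ± 34.4 to 295 ± 34.4 TPM (0.67 ± 0.144, adjusted p = 0.00527), and ArgJ AOL_s00215g689 fell from 72.9 ± 6.25 to 47.0 ± 5.17 TPM (-0.62 ± 0.151). Arg-6 (AOL_s00083g285) fell by 0.58 ± 0.176, a call lost after scaling (-0.38, adjusted p = 0.101) and without replicate 2 or 3 of untreated wild type or replicate 1 or 2 of induced wild type (adjusted p = 0.0577 to 0.0868). For the AoAcy deletion limma called none of the 29, with 6 at an unadjusted p under 0.05, where 4.99% of all genes were called, 3.66% upward and 1.33% downward. Leaving out replicate 3 of the untreated deletion gave 2 calls, and leaving out replicate 3 of the induced deletion gave 3. The response differed between the strains for 3 of 29 genes, 1 more positive and 2 more negative, where 19.3% of all genes were called, 14.2% more positive and 5.1% more negative, and 10.5% at 2-fold or more. After scaling 7 were called, 1 more positive and 6 more negative, and without replicate 2 of induced wild type 1 was.

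Of the regulators of general amino acid control, the transcription factor CPC1 (AOL_s00076g678) fell on induction of wild type in the PkaC1 experiment, from 926 ± 8.80 to 589.6 ± 10.6 TPM (-0.65 ± 0.0585). In the PkaC1 deletion CPC1 was called lower on induction as deposited (-0.26), and scaling turned this to 0.76. The kinase GCN2 (AOL_s00215g639) rose in wild type of that experiment from 8.22 ± 0.429 to 13.7 ± 0.647 TPM (0.67 ± 0.108). That call was lost with each wild type group as 1 library. In the deletion it went from 11.1 ± 0.872 to 5.34 ± 0.774 TPM, called as deposited (-0.94 ± 0.108) but not after scaling (-0.03, adjusted p = 0.764). The beta-subunit-like protein AOL_s00173g232, matched to the family of CPC2 in Neurospora and RACK1 in animals, rose from 108 ± 1.19 to 501 ± 10.5 TPM in wild type (2.21 ± 0.136) and by 0.79 ± 0.136 in the deletion. In the Acy experiment AOL_s00173g232 and AOL_s00215g639 fell on induction of wild type, by 0.88 ± 0.183 and 0.81 ± 0.259. The second of these calls was lost without replicate 1 or 3 of untreated wild type or replicate 2 or 3 of induced wild type (adjusted p = 0.0577 to 0.138). CPC1 (AOL_s00076g678) was not called there, at 382 ± 58.9 and 282 ± 42.9 TPM.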

How the data were processed

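For each experiment the authors deposited 1 expression file of TPM, a unit given by its title and borne out by columns of equal sum. Per the submitters' processing notes, HISAT2 and StringTie were used; their versions and the genome build are not given in the sources used here. No coordinates are printed. The authors also deposited tables of log2 fold changes and p-values, per the file headers, of which only the log2 fold changes were used. The files' lengths were multiples of 3 in 99.98% of annotated genes, that is, coding lengths. TPM keep no read counts, so depth is unknown and no counting interval is given. Left out were 8 columns of group means and the authors' correlation files.

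Groups and replicate numbers came from the sample titles. Genes that reached 1 TPM in 3 or more of an experiment's 12 libraries were tested on log2(TPM + 1), which understates the change of low genes. limma 3.58.1 in R 4.3.3 was used (trend, all 4 groups sharing 1 spread), with Benjamini-Hochberg adjustment over all tested genes and calls at an adjusted p under 0.05. The fit was tested on simulated data. Tables were prepared in Python 3.11.15. The 3 genes were chosen with their values known and got no test.

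The 3 genes and the lists were chosen with earlier results of these data known. Lists were matched by KEGG number or annotated name in the Acy table. AOL_s00006g126, matched only in the PkaC1 table, was left out. AOL_s00006g356 (a phospholipase match), AOL_s00043g662 (an aldolase) and AOL_s00076g507 (D-serine dehydratase) were kept in the serine list. Named were the 3 genes, their neighbours by number, their 3 most alike genes, the regulators and genes of the 2 pathway lists, those called at 2-fold or more first. The alternatives were a pseudocount of 0.1, no filter, a minimum of 5 TPM, scaling to the same median, a replicate block, only the 2 groups compared, each library left out and, chosen after seeing the data, the wild type groups of the PkaC1 experiment taken as 1 library each. Same-numbered libraries deviated together, with every correlation over 0.1, only between the untreated and induced AoAcy deletion (0.21, 0.14 and 0.44).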

Additional observations from a re-analysis of the deposited data

Results flagged for a closer look

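In the PkaC1 experiment the response to induction differed between deletion and wild type, by limma's test of the difference, for 12 of 30 pathway and regulator genes at 2-fold or more, where 42.8% of all genes did the same. All 12 had a smaller or more negative log2 response in the deletion. Their size depends on scaling: 4 of the 12 were still at 2-fold or more on the scaled values, on which 6 of the 30 genes were more positive and 4 more negative at that size. The 12 were the serine hydroxymethyltransferase AOL_s00054g637 (-3.02), phosphoserine phosphatase AOL_s00079g141 (-2.24), serine palmitoyltransferase 2 AOL_s00215g158 (-1.92), phosphoserine aminotransferase AOL_s00076g374 (-1.66) and the kinase GCN2 AOL_s00215g639 (-1.61). The second lyase AOL_s00117g52 was at -1.49, the carbamoyl-phosphate synthase large chain AOL_s00188g271 at -1.45 and the small chain AOL_s00078g512 at -1.21. Acetylornithine aminotransferase AOL_s00081g335 was at -1.43, the beta-subunit-like protein AOL_s00173g232 at -1.42, alanine-glyoxylate aminotransferase AOL_s00188g90 at -1.30 and ArgJ AOL_s00215g689 at -1.19. The median of all genes was -0.62 in this difference. In the Acy experiment the same test called 3 of 32 at that size, where 10.5% of all genes did the same: GCN2 AOL_s00215g639 (1.34), the phospholipase match AOL_s00006g356 (1.15) and the ornithine decarboxylase AOL_s00097g429 (-1.58). The call for AOL_s00215g639 was lost when any of 6 single libraries was left out (replicate 1 or 3 of untreated wild type, 2 of induced wild type, 3 of the untreated deletion, 1 or 2 of the induced deletion; adjusted p = 0.0563 to 0.0738). That for AOL_s00006g356 was lost without any of 3 (replicate 2 of induced wild type, 1 or 2 of the induced deletion; adjusted p = 0.0536 to 0.0606).

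Wild type was induced in both experiments, and for 9 of 35 genes of the pathway and regulator lists the 3 induced libraries lay beyond the untreated ones in opposite directions in the 2 experiments. Without the 3 chosen genes, whose listed zeros enter the count, it was 8 of 30 genes tested in both experiments (26.7%), against 21.6% of all 8751 such genes. The difference was not tested, because the tables were normalized separately. Directions were judged by separation of the TPM as deposited, without scaling. In 8 of the 9, the chosen synthase among them, the induced level was higher in the PkaC1 experiment and lower in the Acy experiment. Without the 3 chosen genes it was 7 of 30 (23.3%), against 14.8% of all 8751 genes. Most opposite genes of the whole series leaned this way too, 1291 of 1888. For the 8 genes, the induced means in the PkaC1 experiment were 279 TPM for argininosuccinate synthase AOL_s00076g641, 61.7 for the carbamoyl-phosphate synthase large chain AOL_s00188g271, 30.03 for ArgJ AOL_s00215g689 and 73.0 for the aldolase AOL_s00043g662. They were 95.1 TPM for serine palmitoyltransferase 1 AOL_s00054g761, 19.8 for D-serine dehydratase AOL_s00076g507, 501 for AOL_s00173g232 and 13.7 for GCN2 AOL_s00215g639. The ornithine decarboxylase AOL_s00076g205 went the other way, with 138 TPM after induction in the PkaC1 experiment, and scaling turned its change there to 0.09. In the Acy experiment limma called the falls of AOL_s00215g689, AOL_s00173g232 and AOL_s00215g639 on induction of wild type. It did not call those of AOL_s00188g271, AOL_s00043g662, AOL_s00054g761 and AOL_s00076g507, nor the rise of AOL_s00076g205. The median change of all genes there was -0.19 as deposited.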

How the results depend on the processing

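Of 2854 values for the 162 called changes of pathway and regulator genes under the alternatives, 2713 kept direction and side of the threshold, 130 lost the call and 11 reversed. The fit of only the 2 groups compared was left out of this count of values. All 11 reversals came from scaling to the same median. On induction of the PkaC1 deletion the scaled values were 0.56 (AOL_s00043g159), 0.76 (AOL_s00076g678), 0.36 (AOL_s00078g512), 0.60 (AOL_s00117g52) and 0.58 (AOL_s00188g27). The others were AOL_s00188g90 (-0.046, untreated PkaC1 deletion), AOL_s00076g678 (0.064, induced PkaC1 deletion), AOL_s00076g205 (0.093, induction of PkaC1 wild type), AOL_s00043g502 and AOL_s00076g97 (0.33 and 0.15, PkaC1 difference of responses) and AOL_s00083g426 (-0.13, induced AoAcy deletion). Counts of called pathway genes moved by over 1.5 times in few settings. With the PkaC1 wild type groups taken as 1 library each, the counts were 9 (deletion, untreated), 15 (induction of wild type) and 13 (difference of responses), and in the Acy experiment scaling gave 9 (induction of wild type) and 7 (difference). Leaving out 1 library gave 15 to 17, 19 to 20, 23 to 24, 20 to 23 and 18 to 22 in the PkaC1 experiment, in the order deletion untreated, deletion induced, induction of wild type, induction of the deletion and difference. In the Acy experiment it gave 13 to 16, 11 to 18, 3 to 7, 0 to 3 and 1 to 4. With the replicate block the counts were 16, 19, 24, 22 and 20, and 15, 15, 5, 0 and 3, and no count moved by over 1.5 times; between the untreated and induced AoAcy deletion, where numbers deviated together, 2 of 3 libraries correlated best with their own number. The values of the 3 enzymes that are listed at 0 have no measured error, and depth is unknown.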

Other observations

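The other amino acid pathways were described with a list of 63 biosynthesis genes, 58 of them tested in the PkaC1 experiment. On induction of wild type there 52 rose and 4 fell (54 and 3 after scaling), where 28.1% of all genes rose and 41.6% fell, with a median log2 change of 1.00 against -0.16 over all genes. Histidinol-phosphate aminotransferase AOL_s00109g202 went from 10.6 ± 1.81 to 178 ± 4.16 TPM (3.97 ± 0.197), saccharopine dehydrogenase AOL_s00215g605 of lysine synthesis from 15 ± 1.65 to 191 ± 2.67 TPM (3.59 ± 0.142) and tryptophan synthase AOL_s00081g334 from 19 ± 0.548 to 153 ± 3.12 TPM (2.95 ± 0.135). NADP-specific glutamate dehydrogenase AOL_s00110g116, which assimilates ammonium, fell from 1932 ± 14.4 to 842 ± 12.2 TPM (-1.20 ± 0.232). These genes were chosen after their values were seen. In the Acy experiment 4 of 63 rose and 21 fell on induction of wild type (11 and 8 after scaling), where 9.2% of all genes rose and 19.4% fell. Between the PkaC1 strains 24 of the 58 were higher and 12 lower in the untreated deletion (14 and 25 after scaling). There 40.7% of all genes were higher and 24% lower. In the induced deletion 5 were higher and 51 lower (6 and 41 after scaling), against 18.9% and 52% of all genes.

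Exact zeros also met genes of this list. The AROM enzyme of aromatic amino acid synthesis, AOL_s00117g8, and imidazoleglycerol-phosphate dehydratase AOL_s00215g554 of histidine synthesis were listed at 0 in all 12 libraries of the PkaC1 experiment, with Acy group means from 21.5 to 36.1 TPM and from 93.5 to 145.4 TPM. Aspartate-semialdehyde dehydrogenase AOL_s00079g68 was listed at 0 in the 3 induced wild type libraries of the PkaC1 experiment and was at 210 ± 24.5 TPM in the induced deletion. Its Acy group means ran from 261 to 368 TPM.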
